A study of Mus musculus with 12 samples.

Results

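The genes for integrin and laminin chains were examined in W-20 cells, a mouse bone marrow stromal cell (BMSC) line. The members were chosen by name: the protein-coding genes whose symbols mark an integrin alpha, an integrin beta or a laminin chain. There were 37 of them among the 56980 genes of the count matrix, 18 integrin alpha, 8 integrin beta and 11 laminin genes, and the counts given here cover 36 of them. The study asked how parathyroid hormone (PTH) acts on the Hippo pathway effector YAP and what a YAP mutant at Y428 does to that response. RNA-Seq libraries came from WT cells with vehicle (PBS), WT cells with PTH, Y428F cells with vehicle and Y428F cells with PTH, 3 libraries per group. PTH was given at 50 nM for 2 hours, and RNA was poly-A selected. The Y428F cells are named so in the library titles, although their genotype label reads WT. By the study text the mutant cells compared with WT cells by RNA-Seq carried YAP S381A/Y428F, from a Flag-tagged plasmid in a puromycin-selected stable line, so S381A comes with Y428F although the titles give Y428F alone. The endogenous *Yap1* gene is still present in such a line. No library of cells given unmutated YAP or YAP S381A alone was analysed here, so an effect of Y428F cannot be told apart from other differences of the line. The labels do not say whether the 3 libraries of a group came from separate cultures, and the study describes its experiments only in general as independently repeated. The p-values therefore measure the spread between these libraries, which may be technical.

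Integrins are cell surface receptors made of 1 alpha and 1 beta chain that link the extracellular matrix to the actin cytoskeleton. The alpha chain largely sets the ligand, with separate sets of chains for collagens, for laminins and for proteins with an RGD motif such as fibronectin. Laminins are trimers of an alpha, a beta and a gamma chain that build the basement membrane. In bone marrow, stromal cells use integrins to hold on to fibronectin and collagen and also secrete laminin for other cells.

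Expression is given in CPM, the rounded expected counts of a gene scaled to a common library size with the TMM method of edgeR. The libraries held between 17127897 and 19057319 counts, with 17740980 as the median. Of the 36 genes, 21 reached a mean of at least 1 CPM in a group, 9 alpha, 6 beta and 6 laminin genes, and they are the genes shown in the plots. *Itga4* and *Lama4* had 0 counts in all 12 libraries. A total of at least 10 counts was required for testing, which left 27 members in the 6 WT libraries and 30 in all 12 libraries. The members not tested in the 12 libraries were *Itga2*, *Itga4*, *Itgax*, *Itgb6*, *Lama1* and *Lama4*, and in the WT libraries *Itga11*, *Itgal* and *Lama3* were also left out. Genes were called changed when edgeR's quasi-likelihood test gave a p below 0.05 after Benjamini-Hochberg adjustment, which ran over all genes tested. Log2 fold changes are given ± standard error (SE), taken as the absolute log2 fold change divided by the square root of the test's F statistic. As bulk RNA was used, fewer cells of a type and less RNA per cell cannot be told apart.

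To compare genes with each other, CPM was divided by the length of the canonical transcript in kilobases (kb). On that scale *Itgb1*, the partner of most alpha chains, was the leading chain of the whole set, with 292 ± 3.79 CPM per kb (SD, n = 3) in WT vehicle libraries. *Itgb5*, a partner of *Itgav* in vitronectin receptors, followed among the beta genes with 127 ± 4.37. Among the alpha genes the order in WT vehicle libraries was *Itga3*, a laminin receptor chain, with 122 ± 7.94 CPM per kb, then *Itga5*, the fibronectin receptor chain, with 55.6 ± 5.07, then *Itgav*, with 38.3 ± 1.97, and then *Itga7* with 16.3 ± 0.896. *Itga10* and *Itga6* came next, with 5.97 ± 0.968 and 5.75 ± 0.180 CPM per kb, and these neighbours did not differ beyond their spread. With the union of all annotated exons as length they did, as *Itga10* was at 5.80 ± 0.942 and *Itga6* at 2.23 ± 0.0697 CPM per kb. Of the laminin genes, *Lamb2* led with 69.4 ± 6.77, followed by *Lamb1* with 34.9 ± 5.70 and *Lamc1* with 31.6 ± 3.84, and *Lamb1* and *Lamc1* did not differ beyond their spread. By union length *Itgb5* was at 60.04 CPM per kb, and *Lamb1*, at 18.9, came below *Lamc1*, at 22.1. Laminin alpha genes were lower, with 7.91 ± 1.05 CPM per kb for *Lama2*, their most abundant gene in WT vehicle cells.

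**Figure D1:**
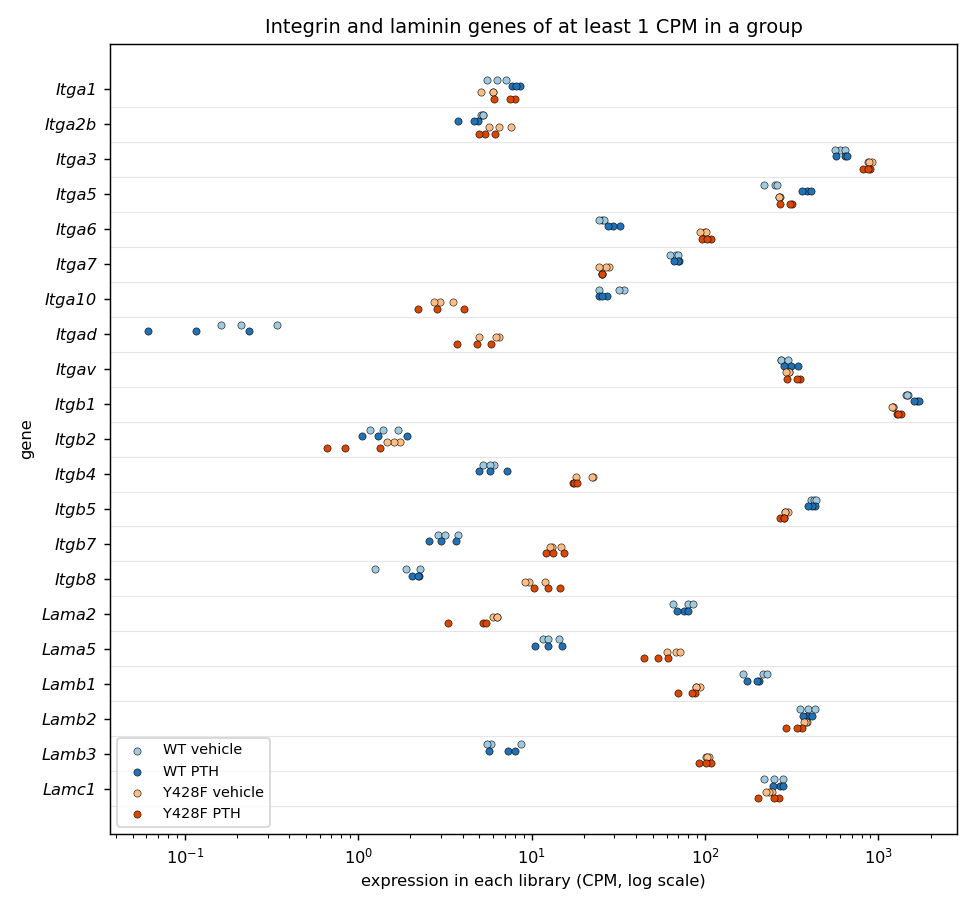
Expression of the 21 integrin and laminin genes that reached 1 CPM in a group, with CPM on a log axis and 1 point per library. Points of the WT and Y428F cells lie apart for genes such as *Itga6*, *Itga10*, *Itgad*, *Lama2*, *Lama5* and *Lamb3*, whereas PTH moved *Itga5* in WT cells.

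The effect of PTH on the members was first assessed in WT cells. *Itga5* rose with PTH, and 0 members fell. *Itga5* pairs with *Itgb1* to form the main fibronectin receptor. Among all 15583 genes tested in WT cells, 6.88% were called higher and 4.91% lower, against 1 and 0 of the 27 members. With scaling by library totals in place of TMM, the calls among all genes changed from 1072 higher and 765 lower to 744 and 1216, and the member called stayed *Itga5*. At an unadjusted p under 0.05 in edgeR, 4 members were higher and 0 lower, against 3932 of all 15583 genes in either direction. DESeq2 called 2 members higher, *Itga5* and *Itgb1*, and 0 lower, against 1153 and 649 of all genes. The median log2 fold change was 0.0030 over the members and -0.015 over all genes tested. The count of members called higher was 3 when all 12 libraries were fitted together (with *Itgb1* and *Itga6*) and 3 without WT vehicle replicate 1 (with *Itgb1* and *Itga1*), where *Itga10* was also called lower.

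*Itga5* (ENSMUSG00000000555.9, GRCm39 chr15:103252713-103275270, minus strand) is printed here with the DNA just before its start because its response to PTH differed between the lines. Of the 250 bases before the canonical start, the run below is the part outside every annotated transcript of the gene. It is from GRCm39, reads 5′ to 3′ on the gene's strand and is in lower case throughout, as none of the motifs searched was found in it.
Itga5, chr15:103275271-103275440: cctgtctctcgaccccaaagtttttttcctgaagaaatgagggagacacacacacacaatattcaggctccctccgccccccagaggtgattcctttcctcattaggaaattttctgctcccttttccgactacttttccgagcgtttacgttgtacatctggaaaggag
The 250-base windows of the 36 members were searched on both strands for 4 motifs. GGAATG, the core of sites bound by TEAD factors, the DNA-binding partners of YAP, was found in 3 member windows, those of *Itga7*, *Itga10* and *Itgb8*, and in 12.1% of all 21631 protein-coding promoter windows of the same length. TGACGTCA, the full cAMP response element, was found in 0 member windows and 1.69% of all. The AP-1 motif TGANTCA was found in 3 member windows, those of *Itgad*, *Itgax* and *Itgb4*, and in 6.19% of all. The CArG box bound by serum response factor was found in 2, *Itgb6* and *Lama2*, and in 1.41% of all. The window of *Itga5* held none of these letters, and its GC content was 55.2%, against a median of 55.0% for the member windows and 53.2% for all windows. These matches describe the sequence and were not tested for use by a factor.

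In WT cells with vehicle, *Itga5* was at 218, 254 and 259 CPM, and with PTH at 387, 409 and 363 CPM. Every WT library with PTH was above every WT library with vehicle. The log2 fold change was 0.67 ± 0.07, or 1.59-fold (adjusted p = 5.9e-05, edgeR). In Y428F cells, *Itga5* was at 269, 266 and 266 CPM with vehicle and at 271, 319 and 308 CPM with PTH. These groups did not overlap either, but the lowest library with PTH was within 3 CPM of the highest with vehicle, and the log2 fold change of 0.16 ± 0.07 did not pass the test (adjusted p = 0.15, edgeR). It was past the threshold without Y428F PTH replicate 1, at 0.23, and with the 6 Y428F libraries fitted alone, at 0.17.

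The PTH response was then compared between the lines with an interaction term. *Itga5* was the 1 member called, with a response lower in Y428F cells by a log2 difference of -0.50 ± 0.10 (adjusted p = 0.025, edgeR). Of all 17691 genes tested, 0.243% had a lower and 0.17% a higher response in Y428F cells, against 1 and 0 of the 30 members. At an unadjusted p under 0.05 in edgeR, 1 member was lower and 1 higher, against 1247 of all 17691 genes in either direction. DESeq2 called 1 lower and 0 higher, against 72 and 51 of all genes. The *Itga5* difference kept its direction in all 12 fits that left out a library, from -0.56 to -0.44, but missed the threshold in 6 of them (highest adjusted p = 0.086, edgeR). These were the fits without WT PTH replicate 1 or 2, without Y428F vehicle replicate 1, 2 or 3, or without Y428F PTH replicate 3. With vehicle, *Itga5* did not differ by the test between Y428F and WT cells (log2 fold change 0.13 ± 0.07, adjusted p = 0.14), whereas with PTH it was 1.29-fold lower in Y428F cells (-0.37 ± 0.07, adjusted p = 0.00018). The vehicle libraries of the lines did not overlap, and an alternative setting called *Itga5* higher in Y428F cells with vehicle.

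**Figure D2:**
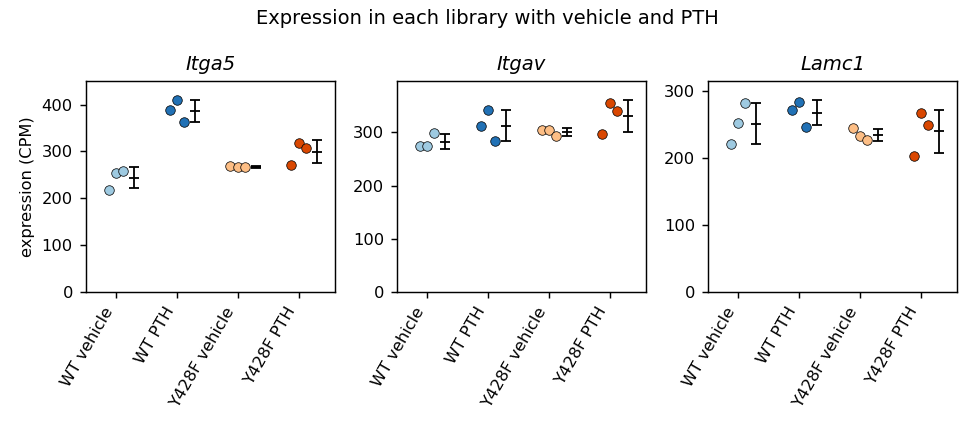
CPM of *Itga5*, *Itgav* and *Lamc1* in each library (points) with the mean and SD over 3 libraries (bars) for WT and Y428F cells with vehicle or PTH. *Itga5* is set apart by its WT PTH libraries at 363 to 409 CPM, and *Itgav* and *Lamc1* are drawn as an alpha and a gamma chain without a called change.

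In Y428F cells, 0 of 30 members were called higher and 0 lower with PTH by edgeR, against 6.61% and 5.78% of all genes tested (1170 higher and 1022 lower, or 888 and 1445 with scaling by library totals, by which 2 members were lower). At an unadjusted p under 0.05 in edgeR, 4 members were higher and 5 lower, against 4315 of all 17691 genes in either direction. DESeq2 called 1 member higher, *Itgb1*, and 2 lower, *Lama5* and *Lama2*, against 1302 and 1065 of all genes. *Lama5* was nearest to the threshold, with a log2 fold change of -0.33 ± 0.11 (adjusted p = 0.054), and it was called lower in some alternative fits. Its libraries with PTH (44.3, 61.2 and 53.6 CPM) overlapped those with vehicle (68.1, 71.7 and 60.1 CPM). For *Itgav*, an abundant chain not called in either line, the log2 fold change was 0.15 ± 0.07 in WT cells and 0.14 ± 0.07 in Y428F cells (adjusted p = 0.20 and 0.25, edgeR). *Itgb1* gave 0.18 ± 0.06 in WT cells (adjusted p = 0.083) and 0.12 ± 0.05 in Y428F cells (adjusted p = 0.16), and in neither line did the PTH and vehicle libraries overlap.

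The larger differences were those between the lines. With vehicle, 9 of 30 members were higher and 8 lower in Y428F than in WT cells. Higher were *Itga3*, *Itga6*, *Itga11*, *Itgad*, *Itgb4*, *Itgb7*, *Itgb8*, *Lama5* and *Lamb3*. Lower were *Itga7*, *Itga8*, *Itga9*, *Itga10*, *Itgb1*, *Itgb5*, *Lama2* and *Lamb1*. Of all genes tested, 22.4% were higher and 22.7% lower, so a call was common across the transcriptome. With PTH, 9 members were higher and 10 lower, against 22.8% and 23.0% of all genes. Of the calls with vehicle, all were also made with PTH except that of *Itga11*, and *Lamc3* (higher), *Itga5* and *Lamb2* (lower) were called with PTH and not with vehicle. The median log2 difference with vehicle was 0.11 over the members tested, between the values of *Itgav* and *Itga5*, and 0.012 over all genes, and with PTH it was -0.0041 and 0.019. Without the members at 0 in every library of a compared group, a choice made after the values were seen, the medians were 0.19 with vehicle (*Itga8*, *Itga9* and *Lama3* left out) and 0.079 with PTH (*Itga9* left out). The sizes were therefore examined class by class, beginning with the laminins.

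*Lama2* (ENSMUSG00000019899.18, chr10:26856032-27495754, minus strand) encodes the laminin alpha chain of muscle and peripheral nerve and of several stromal matrices. It was at 65.2, 79.8 and 84.7 CPM in WT cells with vehicle and at 5.97, 6.32 and 6.33 CPM in Y428F cells with vehicle. With PTH the values were 75.3, 79.9 and 69.3 CPM in WT cells and 3.27, 5.22 and 5.45 CPM in Y428F cells. The lines did not overlap, and *Lama2* was lower in Y428F cells by 12.3-fold with vehicle (log2 -3.62 ± 0.12, adjusted p = 4.5e-15) and by 16.1-fold with PTH (-4.01 ± 0.13, adjusted p = 2.4e-15, edgeR). 

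*Lama5* (ENSMUSG00000015647.10, chr2:179818166-179867712, minus strand), the alpha chain of most adult basement membranes, went the other way. It was at 11.7, 12.4 and 14.4 CPM in WT and at 68.1, 71.7 and 60.1 CPM in Y428F cells with vehicle. With PTH the values were 15.0, 12.4 and 10.4 CPM in WT and 44.3, 61.2 and 53.6 CPM in Y428F cells. *Lama5* was thus 5.19-fold higher in Y428F cells with vehicle (log2 2.38 ± 0.12, adjusted p = 2.7e-12) and 4.21-fold higher with PTH (2.07 ± 0.13, adjusted p = 3.0e-11, edgeR), with no overlap between the lines.

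The make-up of the laminin alpha class differed accordingly between the lines. Per kb of transcript, *Lama2* made up 87.5% ± 0.764 (SD, n = 3) of laminin alpha expression in WT vehicle cells and 9.97% ± 0.961 in Y428F vehicle cells, and *Lama5* made up 12.5% ± 0.790 and 90.0% ± 0.961. With PTH the shares of *Lama2* were 87.5% ± 1.73 and 9.28% ± 1.35. The ratio of *Lama2* to *Lama5* was 7.05 ± 0.518 in WT vehicle and 0.111 ± 0.0119 in Y428F vehicle libraries. With the union of all exons as length it was 3.83 ± 0.281 and 0.0602 ± 0.00648, since that length of *Lama2* is larger. By that length the shares with vehicle were 79.2% ± 1.16 in WT and 5.67% ± 0.574 in Y428F cells for *Lama2*. For *Lama5* they were 20.8% ± 1.20 and 94.3% ± 0.574. *Lama1* and *Lama3* did not exceed 4 counts in any library. *Lama3*, the usual partner of *Lamb3* in epithelial laminin, had at most 2 counts per WT library and at most 4 counts per Y428F library.

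Among the laminin beta genes, *Lamb3* (ENSMUSG00000026639.19, chr1:192890007-193027705, plus strand) differed most. It was at 8.73, 5.80 and 5.53 CPM in WT and at 105, 101 and 103 CPM in Y428F cells with vehicle. With PTH it was at 7.31, 8.00 and 5.65 CPM in WT and at 92.3, 108 and 101 CPM in Y428F cells. All Y428F libraries were far above all WT libraries, by 15.3-fold with vehicle (log2 3.94 ± 0.12, adjusted p = 6.8e-16) and 14.4-fold with PTH (3.85 ± 0.12, adjusted p = 1.0e-15, edgeR). 

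*Lamb1*, a beta chain found from the first basement membranes of the embryo onward, was lower in Y428F cells. It was at 165, 215 and 227 CPM in WT and at 93.9, 88.8 and 88.6 CPM in Y428F vehicle cells, a 2.24-fold difference (log2 -1.16 ± 0.10, adjusted p = 4.0e-09, edgeR). With PTH it was at 204, 200 and 175 CPM in WT and at 69.7, 87.9 and 83.7 CPM in Y428F cells, which is 2.40-fold lower. *Lamb2*, the leading beta gene per kb in all 4 groups, gave a log2 difference of -0.04 ± 0.08 with vehicle (adjusted p = 0.72). With PTH it was 1.18-fold lower in Y428F cells (-0.23 ± 0.08, adjusted p = 0.015, edgeR). That call was lost with library totals (adjusted p = 0.059) and without WT PTH replicate 2 or Y428F PTH replicate 1 (highest adjusted p = 0.094, edgeR). The test of the difference between the values with vehicle and with PTH was not passed (adjusted p = 0.78, edgeR). Over 571 genes of chromosome 9, where *Lamb2* lies, the median log2 difference was -0.24 with vehicle and -0.26 with PTH. Other chromosomes had shifted medians too. With vehicle and PTH they were 0.20 and 0.23 for chromosome 15, where *Itga5* lies, and -0.13 and -0.12 for chromosome 8 (*Itgb1*). For chromosome 10, which holds *Lama2* and *Itga7*, they were 0.25 and 0.27. The part of such shifts in the differences of the members was not tested. 

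As shares of laminin beta expression per kb, *Lamb2* took 65.9% ± 1.55 in WT vehicle and 66.5% ± 0.381 in Y428F vehicle cells. *Lamb1* took 33.0% ± 1.97 and 15.3% ± 0.236, and *Lamb3* took 1.17% ± 0.454 and 18.2% ± 0.239. By union length these shares were 76.6% and 74.9% for *Lamb2*, 22.4% and 10.1% for *Lamb1*, and 0.994% and 15.0% for *Lamb3*. *Lamc1*, the common gamma chain, was at 220, 251 and 281 CPM in WT and at 244, 232 and 226 CPM in Y428F cells with vehicle, groups that overlapped (log2 difference -0.10 ± 0.09, adjusted p = 0.40, edgeR). *Lamc3* had at most 6 counts in a WT library and 7 to 13 counts in each Y428F library.

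**Figure D3:**
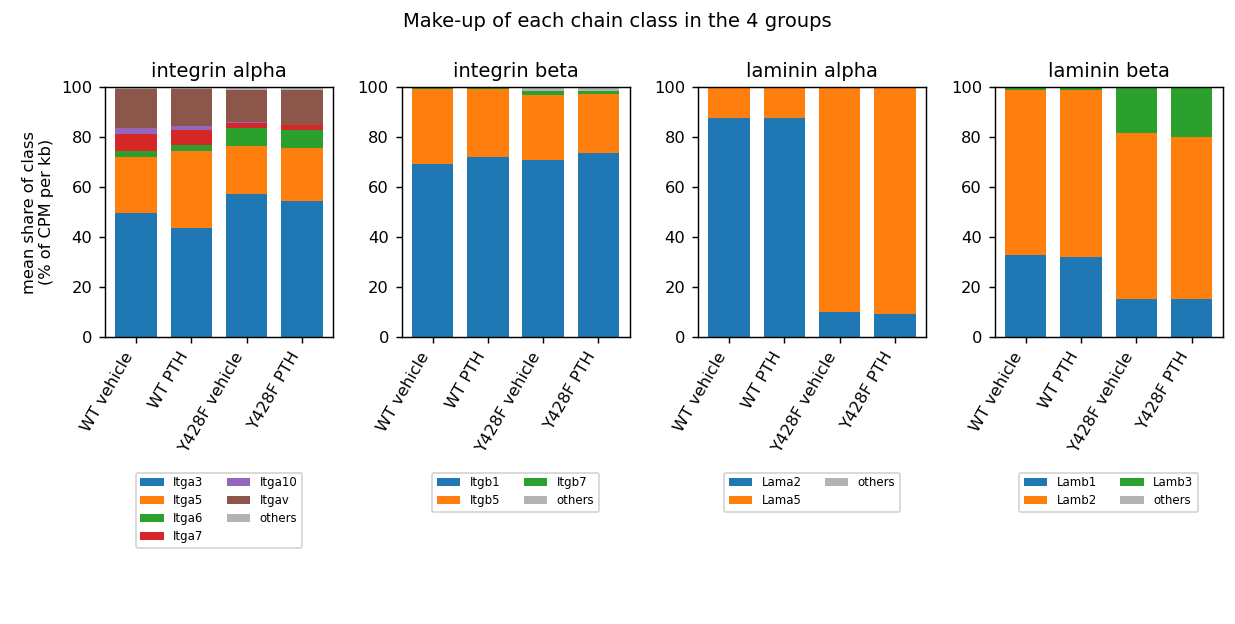
Mean share of each gene in the CPM per kb of its chain class, for the integrin alpha, integrin beta, laminin alpha and laminin beta genes in the 4 groups (3 libraries each). The laminin alpha bars change from 87.5% *Lama2* in WT vehicle cells to 90.0% *Lama5* in Y428F vehicle cells, and *Itgb1* holds most of the beta class in every group.

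The alpha chains that bind laminin are *Itga3*, *Itga6* and *Itga7*. *Itga6* (ENSMUSG00000027111.17, chr2:71575960-71689757, plus strand), which pairs with *Itgb1* or *Itgb4*, was at 25.4, 26.1 and 24.5 CPM in WT and at 99.7, 102 and 93.4 CPM in Y428F cells with vehicle. With PTH it was at 32.1, 29.6 and 27.5 CPM in WT and at 96.3, 109 and 103 CPM in Y428F cells. It was 3.88-fold higher in Y428F cells with vehicle (log2 1.96 ± 0.07, adjusted p = 7.0e-15) and 3.45-fold higher with PTH (1.79 ± 0.07, adjusted p = 2.4e-14, edgeR). 

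*Itga7* (ENSMUSG00000025348.11, chr10:128769621-128794169, plus strand), the laminin receptor chain best known from skeletal muscle, was lower in Y428F cells. It was at 67.9, 62.8 and 70.0 CPM in WT and at 27.8, 26.9 and 24.5 CPM in Y428F vehicle cells, a 2.53-fold difference (log2 -1.34 ± 0.07, adjusted p = 1.3e-12, edgeR). With PTH it was 2.71-fold lower (-1.44 ± 0.07), and in neither case did the lines overlap. The ratio of *Itga6* to *Itga7* per kb was 0.353 ± 0.0305 in WT vehicle and 3.46 ± 0.112 in Y428F vehicle libraries, so the order of these chains was opposite in the lines. *Itga3*, the most abundant of the alpha genes in all groups, was at 602, 566 and 644 CPM in WT and at 920, 873 and 879 CPM in Y428F cells with vehicle. It was 1.47-fold higher in Y428F cells (log2 0.56 ± 0.06, adjusted p = 3.0e-07, edgeR).

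Of the alpha chains that bind collagen (*Itga1*, *Itga2*, *Itga10* and *Itga11*), *Itga10* differed most among those of at least 1 CPM in a group. *Itga10* (ENSMUSG00000090210.8, chr3:96552900-96571835, plus strand) is a collagen receptor chain of cartilage and of stromal progenitors. It was at 24.6, 33.9 and 31.8 CPM in WT and at 2.96, 3.54 and 2.73 CPM in Y428F cells with vehicle. With PTH it was at 24.3, 27.3 and 25.6 CPM in WT and at 2.22, 4.10 and 2.86 CPM in Y428F cells. It was lower in every Y428F library, by 9.73-fold with vehicle (log2 -3.28 ± 0.16, adjusted p = 8.9e-13) and 8.41-fold with PTH (-3.07 ± 0.16, adjusted p = 3.2e-12, edgeR). An overlapping gene model, *Gm42957*, shares 33.5% of the exon bases of *Itga10*, and its own mean was 1.29 CPM in WT vehicle and 0.164 CPM in Y428F vehicle libraries, so the split of reads between them is uncertain. *Itga1* gave a log2 difference of -0.15 ± 0.14 with vehicle (adjusted p = 0.44), *Itga11* had 0 to 2 counts per WT vehicle library and 10 to 14 per Y428F vehicle library, and *Itga2* had at most 2 counts in any library.

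The RGD-binding chains *Itga5* and *Itgav* were abundant in both lines. *Itgav* was at 275, 274 and 300 CPM in WT and at 305, 305 and 292 CPM in Y428F cells with vehicle, overlapping ranges with a log2 difference of 0.09 ± 0.07 (adjusted p = 0.34, edgeR). *Itga8*, a nephronectin receptor chain, had 6 to 11 counts per WT vehicle library and 0 in the 3 Y428F vehicle libraries, at least 2.97-fold lower against a floor of 3 counts per library. *Itga9*, the tenascin and osteopontin receptor chain, had 0 to 8 counts per WT library and 0 in all 6 Y428F libraries, which is too close to that floor for a fold. Its call was lost with vehicle without WT vehicle replicate 3 (adjusted p = 0.064, edgeR) and with PTH without WT PTH replicate 1 or 2 (highest adjusted p = 0.062, edgeR), and with PTH the lines overlapped. *Itga2b*, the platelet fibrinogen receptor chain, was at 5.21 ± 0.0679 CPM in WT and 6.61 ± 0.981 CPM in Y428F vehicle libraries (adjusted p = 0.065, edgeR).

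The beta genes were divided as well. *Itgb1* was at 1486, 1450 and 1459 CPM in WT and at 1217, 1216 and 1203 CPM in Y428F vehicle cells, a small difference without overlap (1.21-fold lower, log2 -0.27 ± 0.05, adjusted p = 0.00016, edgeR). *Itgb5* was at 410, 423 and 439 CPM in WT and at 303, 290 and 290 CPM in Y428F cells, 1.44-fold lower (log2 -0.53 ± 0.05, adjusted p = 6.6e-08, edgeR). These leading beta genes were thus lower in Y428F cells, whereas 3 beta genes of low expression were higher.

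*Itgb4* (ENSMUSG00000020758.16, chr11:115865333-115899239, plus strand), the hemidesmosome chain that pairs with *Itga6* alone, was at 5.24, 6.03 and 5.74 CPM in WT and at 22.6, 18.1 and 22.4 CPM in Y428F cells with vehicle. This was a 3.70-fold difference (log2 1.89 ± 0.12, adjusted p = 1.0e-10, edgeR), and with PTH it was 2.98-fold. *Galk1* on the other strand overlaps 14.9% of the exon bases of *Itgb4* and was at 63.3 CPM in WT vehicle and 87.0 CPM in Y428F vehicle libraries. Whether the counting used strand is not given in the sources used here, so the share of its reads among those of *Itgb4* was not tested. Per kb, *Itgb4* was at 0.158 ± 0.0110 of *Itga6* in WT and 0.152 ± 0.0231 in Y428F vehicle libraries, so the ratio of these partners differed by less than its spread. By union length it was 0.353 ± 0.0245 and 0.338 ± 0.0515.

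*Itgb8* (ENSMUSG00000025321.15, chr12:119121748-119202584, minus strand), which pairs with *Itgav* and is known for activating latent TGF-β, was at 2.27, 1.25 and 1.88 CPM in WT and at 12.0, 9.71 and 9.12 CPM in Y428F cells with vehicle. It was 5.65-fold higher with vehicle (log2 2.50 ± 0.19, adjusted p = 9.4e-10) and 5.75-fold higher with PTH (2.52 ± 0.19, adjusted p = 5.4e-10, edgeR). *Itgb7* (ENSMUSG00000001281.11, chr15:102124429-102140379, minus strand), a lymphocyte homing receptor chain, was at 3.76, 2.90 and 3.17 CPM in WT and at 13.1, 14.9 and 12.8 CPM in Y428F cells with vehicle, 4.15-fold higher (log2 2.05 ± 0.14, adjusted p = 2.7e-10, edgeR). *Itga4*, an alpha partner of *Itgb7*, had 0 counts in every library, and the other partner, *Itgae*, had 4 to 23 counts per library.

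*Itgad* (ENSMUSG00000070369.14, chr7:127753548-127822988, plus strand), a chain of macrophage integrins that pairs with *Itgb2*, gave the largest log2 difference of the members with a mean of at least 1 CPM in a group. It had 1 to 6 counts per WT library, against 91 to 123 counts per Y428F vehicle library and 67 to 104 counts per Y428F PTH library. In CPM this was 0.212, 0.341 and 0.161 in WT and 6.46, 6.22 and 4.97 in Y428F cells with vehicle (log2 4.60 ± 0.31, adjusted p = 1.8e-10, edgeR). With PTH the log2 difference was 5.04 ± 0.36. Its partner *Itgb2* was at 1.42 ± 0.272 CPM in WT and 1.61 ± 0.139 CPM in Y428F vehicle libraries (adjusted p = 0.66, edgeR). Of the other leukocyte chains, *Itgal*, *Itgam* and *Itgax* had at most 9 counts in any library. The non-coding gene *4931431B13Rik* on the other strand overlaps 9.42% of the exon bases of *Itgad*. The pseudogene *Gm17831* on the same strand overlaps 7.32% of them. Their share of the reads counted for *Itgad* was not tested.

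**Figure D4:**
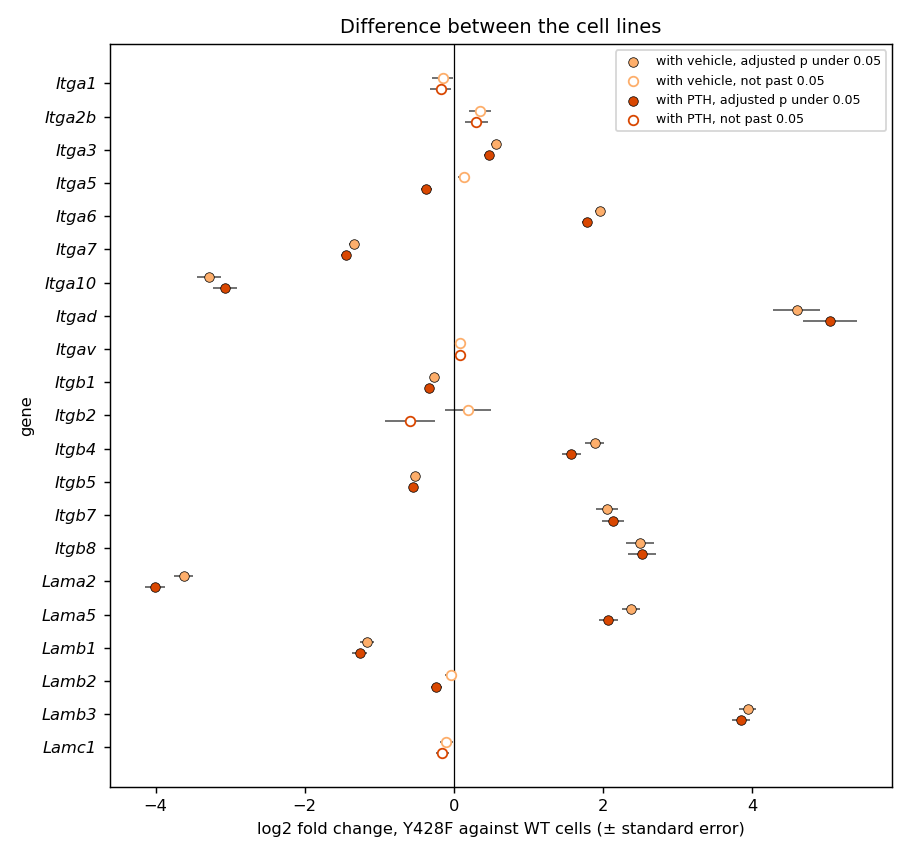
Log2 fold change of Y428F against WT cells with vehicle (light) and with PTH (dark) for the 21 genes that reached 1 CPM in a group, with SE bars and filled points for an adjusted p under 0.05. *Lamb3* and *Itgad* lie farthest to the right and *Lama2* and *Itga10* farthest to the left, and *Itga5* is called with PTH at -0.37 and not with vehicle.

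Since several of these chains are typical of other cell types, marker genes of those types were read in the same libraries. The cells were stromal by most of a list of 10 markers, led by *Col1a2*, although *Thy1* was at 0 and *Nt5e* at 3 counts or fewer in all libraries. The summed level of that list was 19940 to 23501 CPM in WT vehicle and 14043 to 15100 CPM in Y428F vehicle libraries. Most of that sum came from *Col1a2* and *Col1a1*. Of the 8 genes tested, 6 were lower and 2 higher in Y428F cells with vehicle, against 22.7% and 22.4% of all genes. Those higher were *Ly6a* (138 ± 10.7 and 324 ± 1.42 CPM) and *Lepr* (0.143 ± 0.108 and 1.03 ± 0.0407 CPM). For 10 leukocyte markers the sum was 1.82 to 2.43 CPM in WT vehicle and 22.9 to 25.2 CPM in Y428F vehicle libraries, with *Ly6g* the most abundant gene and *Cd3e* and *Fcer1g* at 0. Of these 10 genes, 5 had at most 3 counts in every library, and 3 of the 6 tested were called higher in Y428F cells with vehicle, against 22.4% of all genes. *Ly6g* alone had 321 to 339 counts per Y428F vehicle library and 0 in the WT vehicle libraries. The pan-leukocyte gene *Ptprc* was at 0.952, 0.910 and 0.698 CPM in WT and at 2.90, 2.48 and 3.00 CPM in Y428F vehicle libraries. *Lyz2*, the lysozyme gene of myeloid cells, was at 0.503 ± 0.252 and 3.04 ± 0.335 CPM and was the third gene called higher. Other macrophage markers of the list were near 0 in both lines, with *Csf1r* at 0.320 ± 0.262 and 0.163 ± 0.112 CPM, *Cd68* at 0.331 ± 0.207 and 0.587 ± 0.167 CPM (adjusted p = 0.32 and 0.34, edgeR) and *Adgre1* at 0 in all 6 Y428F libraries. The leukocyte sum, mostly *Ly6g*, was higher in Y428F cells, as were *Itgad* and *Itgb7*, and its part in those differences was not tested.

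For 6 epithelial markers the sum was 0.376 to 0.967 CPM in WT vehicle and 3.28 to 4.66 CPM in Y428F vehicle libraries. *Krt8* was the most abundant of them, and the defining genes *Epcam* and *Krt5* were at 0 in all 12 libraries. For 6 endothelial markers, led by *Cdh5*, the sum was 2.84 to 4.34 CPM in WT vehicle and 9.20 to 11.2 CPM in Y428F vehicle libraries. *Cdh5* carried that difference, with a mean of 0.810 ± 0.282 CPM in WT and 7.95 ± 0.865 CPM in Y428F vehicle libraries, whereas *Vwf* of the same list was lower in Y428F cells (log2 -1.01 ± 0.27, adjusted p = 0.0043, edgeR). For 5 muscle markers, led by *Des* and with *Myod1* and *Myog* at 0, it was 3.58 to 5.24 CPM and 6.98 to 10.1 CPM. For 4 Schwann cell markers, led by *S100b*, it was 1.96 to 2.62 CPM and 0.556 to 0.983 CPM, and for 4 megakaryocyte markers, led by *Gp1bb*, 5.08 to 5.46 CPM and 8.05 to 8.90 CPM. *Gp1bb* itself was at 5.05 ± 0.128 and 4.56 ± 0.349 CPM (adjusted p = 0.53, edgeR), and the 1 gene of that list called higher was *Ppbp*, at 0.146 ± 0.0836 and 3.74 ± 0.241 CPM. The endothelial and epithelial sums were higher in Y428F cells, as were *Lama5*, *Lamb3* and *Itgb4*. The Schwann cell sum was lower, as was *Lama2*, and *S100b* was the 1 gene called of 3 tested in that list with vehicle. The muscle sum was higher, with *Des* the 1 gene called of 2 tested, and *Lama2* and *Itga7* were lower. The part of such cells in these differences was not tested.

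The partners of the members were then examined. Integrins act through adaptors that bind their tails and connect them to actin, and 24 of 27 such genes were tested in WT cells. With PTH, 7 rose in WT cells and 1 fell, and in Y428F cells 8 of 25 rose and 2 fell, against 6.88% and 4.91% of all genes in WT and 6.61% and 5.78% in Y428F cells. The median log2 fold change of the list in WT cells was 0.079, against -0.015 for all genes, and in Y428F cells -0.031, against -0.0067. *Vcl*, which encodes vinculin, was at 342, 388 and 380 CPM in WT vehicle and at 936, 1018 and 899 CPM in WT PTH libraries. In Y428F cells it was at 281, 280 and 278 CPM with vehicle and at 457, 608 and 542 CPM with PTH. The log2 fold change was 1.37 ± 0.07 in WT cells (adjusted p = 6.0e-08) and 0.94 ± 0.08 in Y428F cells (adjusted p = 1.3e-07, edgeR), and the difference did not pass the test (adjusted p = 0.16). *Lims2*, a PINCH adaptor of the complex around integrin-linked kinase, was low with vehicle, at 1.11, 1.65 and 1.99 CPM in WT cells. With PTH it rose by 2.28 ± 0.21 on the log2 scale in WT and by 1.09 ± 0.24 in Y428F cells. The difference between these responses of *Lims2* did not pass the interaction test of edgeR either. *Nedd9*, a scaffold protein of focal adhesions, fell by 0.45 in WT and by 0.50 in Y428F cells on the log2 scale.

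The responses of *Fermt2* and *Tgfb1i1* were lower in Y428F cells. *Fermt2* (ENSMUSG00000037712.18, chr14:45696239-45767770, minus strand) encodes kindlin-2, an activator that binds integrin beta tails. It was at 94.1, 94.1 and 92.7 CPM in WT vehicle and at 165, 158 and 162 CPM in WT PTH libraries, and at 82.6, 82.3 and 90.4 CPM and at 111, 117 and 113 CPM in Y428F libraries. Groups with PTH and vehicle did not overlap in either line. The log2 fold change was 0.79 ± 0.06 in WT and 0.42 ± 0.05 in Y428F cells, and the difference was -0.37 ± 0.08 (adjusted p = 0.029, edgeR). That call was lost in 9 of the 12 fits that left out a library, all except those without WT vehicle replicate 1, WT PTH replicate 3 or Y428F PTH replicate 2 (highest adjusted p = 0.118, edgeR). 

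*Tgfb1i1* (ENSMUSG00000030782.18, chr7:127845984-127856541, plus strand) encodes Hic-5, a focal adhesion protein related to paxillin. It was at 78.8, 89.7 and 91.8 CPM in WT vehicle and at 142, 143 and 131 CPM in WT PTH libraries. In Y428F cells it was at 73.6, 70.3 and 72.1 CPM with vehicle and at 82.4, 82.2 and 81.3 CPM with PTH. It rose by 0.68 ± 0.07 on the log2 scale in WT cells (adjusted p = 2.7e-05), gave 0.19 ± 0.06 in Y428F cells (adjusted p = 0.053), and differed by -0.49 ± 0.09 between the lines (adjusted p = 0.011, edgeR). That call was lost in the fit without WT PTH replicate 1 (adjusted p = 0.050). In this list 2 of 25 genes had a lower response in Y428F cells and 0 a higher one, against 0.243% and 0.17% of all genes. At an unadjusted p under 0.05 in edgeR these counts were 5 and 0, against 1247 of all 17691 genes in either direction. DESeq2 called 3 lower and 0 higher, against 72 and 51 of all genes. As the list was chosen with earlier results of these data known, these counts do not test it as a set. Between the lines, 4 adaptor genes were higher and 10 lower in Y428F cells with vehicle, and 4 higher and 11 lower with PTH. Of all genes tested, 22.4% were higher and 22.7% lower in the first case, and 22.8% and 23.0% in the second. With vehicle, *Nedd9* (log2 -0.84 ± 0.06) and *Kank2* (-0.68 ± 0.05), which encodes a talin-binding protein, were lower and *Lims1* (0.53 ± 0.05) was higher.

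**Figure D5:**
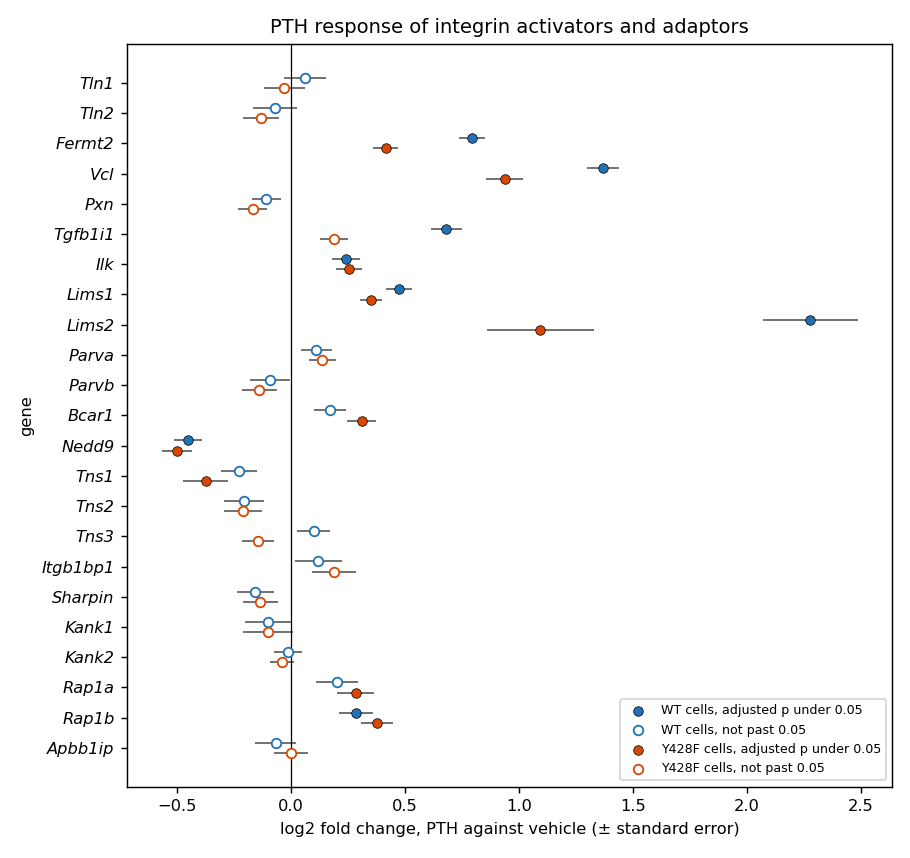
Log2 fold change of PTH against vehicle with SE bars in WT (blue) and Y428F cells (orange) for the 23 integrin activators and adaptors that reached 1 CPM in a group, filled where the adjusted p was under 0.05. The WT points of *Lims2*, *Vcl*, *Fermt2* and *Tgfb1i1* lie to the right of the Y428F points, and the interaction test was passed by *Fermt2* and *Tgfb1i1*.

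Of 17 matrix and cell surface ligands of integrins, 14 were tested in WT cells, where 1 rose with PTH and 0 fell, against 6.88% and 4.91% of all genes. At an unadjusted p under 0.05 in edgeR these counts were 2 and 1, against 3932 of all 15583 genes in either direction. DESeq2 called 1 higher and 0 lower, against 1153 and 649 of all genes. The gene was *Thbs1*, for thrombospondin-1, which was at 2790, 2730 and 3263 CPM with vehicle and at 7562, 8005 and 6439 CPM with PTH in WT cells (log2 fold change 1.33 ± 0.10, adjusted p = 1.5e-06, edgeR). It also rose in Y428F cells, by 0.87 ± 0.10. There 2 ligands rose, *Thbs1* and the tenascin gene *Tnc* (log2 fold change 0.61 ± 0.13), and 2 fell, *Thbs2* and *Emilin1* (-0.30 ± 0.07), against 6.61% and 5.78% of all genes. By the interaction term of edgeR, 0 of 16 ligands were called for a difference in PTH response between the lines. Of all genes, 0.243% had a lower and 0.17% a higher response in Y428F cells. With vehicle, 4 of 16 ligands were higher and 8 lower in the Y428F line, against 22.4% and 22.7% of all genes, with a median log2 difference of -0.58 against 0.012 for all genes. *Vcam1*, the ligand of the *Itga4* and *Itga9* receptors, was at 150, 168 and 156 CPM in WT and at 48.5, 46.7 and 44.6 CPM in Y428F cells (log2 -1.76 ± 0.06). The nephronectin gene *Npnt*, a ligand for *Itga8*, was also lower (log2 -1.75 ± 0.09), as was the fibronectin gene *Fn1* (-0.54 ± 0.12), whereas the matricellular gene *Ccn3* was higher (1.35 ± 0.06).

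Of 19 genes for basement membrane partners of laminin and for laminin receptors other than integrins, 16 were tested in WT cells with PTH, and 0 rose or fell, against 6.88% and 4.91% of all genes. At an unadjusted p under 0.05 in edgeR, 0 were higher and 1 lower, against 3932 of all 15583 genes in either direction. DESeq2 called 0, against 1153 higher and 649 lower of all genes. In Y428F cells, 1 of 18 fell with PTH, the agrin gene *Agrn* (log2 fold change -0.34 ± 0.09, adjusted p = 0.019, edgeR), a share near the 5.78% of all genes. Between the lines with vehicle, 6 were higher and 7 lower in Y428F cells, and with PTH 4 were higher and 10 lower, against 22.4% and 22.7%, then 22.8% and 23.0%, of all genes. The median log2 difference was -0.075 with vehicle and -0.38 with PTH. *Nid1*, for nidogen, the linker of laminin to type IV collagen, was at 1015, 1218 and 1299 CPM in WT and at 616, 605 and 580 CPM in Y428F cells with vehicle (log2 -0.97 ± 0.09). *Agrn* (-1.04 ± 0.09) and the sarcoglycan genes *Sgce* (-1.40 ± 0.06) and *Sgcb* (-0.87 ± 0.06) were lower too, whereas the type IV collagen genes *Col4a1* and *Col4a2* were higher by 0.32 ± 0.09 and 0.24 ± 0.09 (adjusted p = 0.0053 and 0.032, edgeR). With PTH those genes were not called (adjusted p = 0.16 and 0.65), and *Col4a5* (-0.16 ± 0.06) and *Col4a6* (-0.56 ± 0.12) were lower in Y428F cells (adjusted p = 0.036 and 0.00092, edgeR). By the interaction term of edgeR, 0 of the 18 genes of this list were called for a difference in PTH response between the lines. Of all genes, 0.243% had a lower and 0.17% a higher response in Y428F cells. *Ntn4*, for a netrin that binds laminin gamma chains, had 0 counts in all 6 WT libraries and 23 to 46 counts in each Y428F library.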

How the data were processed

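The authors mapped reads with STAR 2.7.10b to GRCm39 with GENCODE basic annotation vM31 and deposited RSEM expected counts per gene, unscaled; 6.32% of the deposited values were not whole. Groups were taken from library titles. Expected counts were rounded and modelled with edgeR 4.0.16 (R 4.3.3, limma 3.58.1), TMM normalization and a minimum total of 10 counts. PTH in WT cells was fitted on 6 WT libraries (15583 genes) and the other 4 comparisons on all 12 (17691 genes). CPM used TMM factors over 12 libraries. Positions, lengths, exon overlaps and promoter windows came from GENCODE vM39 on GRCm39, which matched 56236 identifiers and missed 744. RNA with an integrity number above 6 had been selected by the authors.

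Genes named with full values were, among members of at least 1 CPM in a group that were called with either treatment, the 12 with the largest difference between the lines, plus members called for PTH or for the difference in response, 13 in all; from the other lists, the 3 genes with the smallest adjusted p where any was called. Further genes named among these lists or members, such as *Fn1*, *Col4a1*, *Ntn4* and *Itgav*, were chosen after their values were seen. Of the 37 members, 1 is not reported here and stays out of all counts and medians over members. Members and all gene lists were chosen with earlier results of these data known. Replicates differed by more than counting noise (chi-square per degree of freedom 2.87 to 14.2). Same-numbered libraries did not deviate together (mean correlation 0.0019 over 18 pairs, -0.031 to 0.037). Alternatives were DESeq2 1.42.0, other scalings and filters, other libraries in the fit, the replicate block, stricter limits, union-exon lengths and each library left out. The test was also tried on simulated counts, whose outcome is not given or used here. Amino acid sequences were not used here.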

Additional observations from a re-analysis of the deposited data

Results flagged for a closer look

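The PTH response differed between Y428F and WT cells for 3 genes of those examined, by the interaction term of edgeR. For *Itga5* the log2 difference was -0.50 ± 0.10 (adjusted p = 0.025), and all 3 WT libraries with PTH were above all 3 Y428F libraries with PTH. For *Fermt2* it was -0.37 ± 0.08 (adjusted p = 0.029). For *Tgfb1i1* it was -0.49 ± 0.09 (adjusted p = 0.011). Of the 12 fits that left out a library, 6 lost the call for *Itga5*, 9 for *Fermt2* and 1 for *Tgfb1i1* (highest adjusted p = 0.086, 0.118 and 0.050, edgeR).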

How the results depend on the processing

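Of 883 values of the 13 named members under alternatives, 862 stayed on the same side of the threshold, in the same direction where called, 6 lost the call (*Itga5*, difference in response, each with a library left out; the limits of 0.01 and 0.3 were applied to counts), 15 gained one and 0 reversed. PTH in WT: members called higher were 1, against 3 with all 12 libraries in the fit, 2 with DESeq2 and 1 to 3 with a library left out (the 3 without WT vehicle replicate 1), and lower 0, against 0 to 1. PTH in Y428F cells: higher 0, against 1 with the 6 Y428F libraries alone, 1 with DESeq2 and 0 to 1 with a library left out (*Itga5*, or *Itgb1* by DESeq2); lower 0, against 2 with the 6 Y428F libraries, 2 with DESeq2, 2 with library totals, 3 with no filter, 1 with the replicate block and 0 to 2 with a library left out. Those called lower were *Lama5*, *Lama2* and *Lamb2*. Difference in response: lower 1 (*Itga5*), against 0 with an adjusted p under 0.01 and a log2 beyond 0.3, and 0 to 1 with a library left out. The replicate block changed no other count of members by over 1.5 times. With union-exon lengths, *Itgb1* in WT vehicle was 245 CPM per kb (292 by transcript), *Itgb5* 60.04 (127), *Itga3* 104 (122), *Itga5* 45.8 (55.6), *Itgav* 22.9 (38.3), *Itga7* 8.07 (16.3), *Itga6* 2.23 (5.75), *Lamb1* 18.9 (34.9), *Lamc1* 22.1 (31.6) and *Lama2* 4.30 (7.91), and *Lamb2* in Y428F vehicle was 62.6 (67.6). For the difference in response, 30 and 43 genes became 96 and 120 with no filter and 51 and 72 with DESeq2. Calls between the lines for *Itga8* with PTH and *Itga9* with either treatment were also lost in some fits (highest adjusted p = 0.113, 0.064 and 0.062). Why the counts moved was not tested. Genes under about 10 counts per library, such as *Itga8*, *Itga9* and *Lamc3*, are limited by depth.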
